A study of Saccharomyces cerevisiae with 10 samples.

Results

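The last step of translation was measured here in 5 strains of budding yeast: footprint density at the stop codon and at the 10 codons before it. A gene entered if its coding sequence was at least 200 codons long, the stop codon included, and if it held at least 500 footprints in every strain. This gave 1562 genes of the 4964 listed in all 5 tables, and 17182 positions, 11 per gene. The count at each position was divided by the mean count of its own gene, taken from past the first 100 codons to the 11th position from the end, so a density of 1 is the average codon of that gene. The rule sets coverage and length only and does not select on stop codon density, although the footprints of the whole gene, the stop included, count toward its minimum.

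All strains were of the S288C background, were grown to an OD of 0.6, filtered and flash-frozen, and gave 1 footprint and 1 mRNA library each from RNA of 27 to 32 bp (footprints). In ACA-K, 3 of the 4 gene copies of the threonine tRNA that reads ACA were deleted and replaced by drug resistance markers, and its reference is WT. AGG-OE carried the arginine tRNA that reads AGG on a 2-micron URA plasmid, AGG-QC carried on the same kind of plasmid another arginine tRNA whose anticodon had been changed to read AGG, and both are set against WT-URA, the wild type with a URA plasmid. With 1 library per strain no difference has a replicate check, so no test was run, and every interval given covers counting error only.

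A ribosome that reaches a stop codon has no tRNA to bind. The release factor eRF1 (Sup45) reads the stop codon in the A site together with the GTPase eRF3 (Sup35) and frees the finished protein, and the ATPase Rli1 then splits the ribosome. A footprint on the stop codon is therefore a ribosome caught before it was released and recycled, and a ribosome waiting there could hold the next one about 10 codons upstream.

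The footprint libraries held 21855176 counts in ACA-K, 9127829 in AGG-OE, 6011287 in AGG-QC, 8552107 in WT-URA and 29706058 in WT, of which 67.7 to 72.5% lay in the 1562 genes. The median gene mean was 6.35 footprints per codon in ACA-K, 2.61 in AGG-OE, 1.90 in AGG-QC, 2.37 in WT-URA and 8.71 in WT. The libraries also differed far from the stop codon. At the second codon the mean density was 3.71 in ACA-K, 20.2 in AGG-OE, 14.4 in AGG-QC, 20.8 in WT-URA and 7.41 in WT, so the plasmid strains stood apart from both others there. The codons that give the gene mean were without a footprint at 37.7% of positions in ACA-K but 19.7% in WT. The part of these library differences in the values below was not tested.

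Ribosome density at the stop codon differed widely between the strains, while the codons before it stayed near the gene average. Mean stop codon density over the 1562 genes was 2.66 in ACA-K (95% counting interval 2.62 to 2.71). It was 0.630 in AGG-OE (0.602 to 0.657), 0.371 in AGG-QC (0.347 to 0.394) and 1.10 in WT-URA (1.06 to 1.14). In WT it was 0.829 (0.810 to 0.848). None of these 5 intervals overlaps another, so the order from ACA-K down through WT-URA, WT and AGG-OE to AGG-QC is beyond counting error, although not beyond any spread between libraries, which is unknown. Pooling all footprints, which gives abundant mRNAs most weight, kept this order: the stop codons summed to 78886 footprints in ACA-K, or 2.34 times the summed gene means (exact Poisson interval 2.32 to 2.35), to 8498 in AGG-OE (0.722), 3378 in AGG-QC (0.435), 13186 in WT-URA (1.23) and 34782 in WT (0.760).

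**Figure D1:**
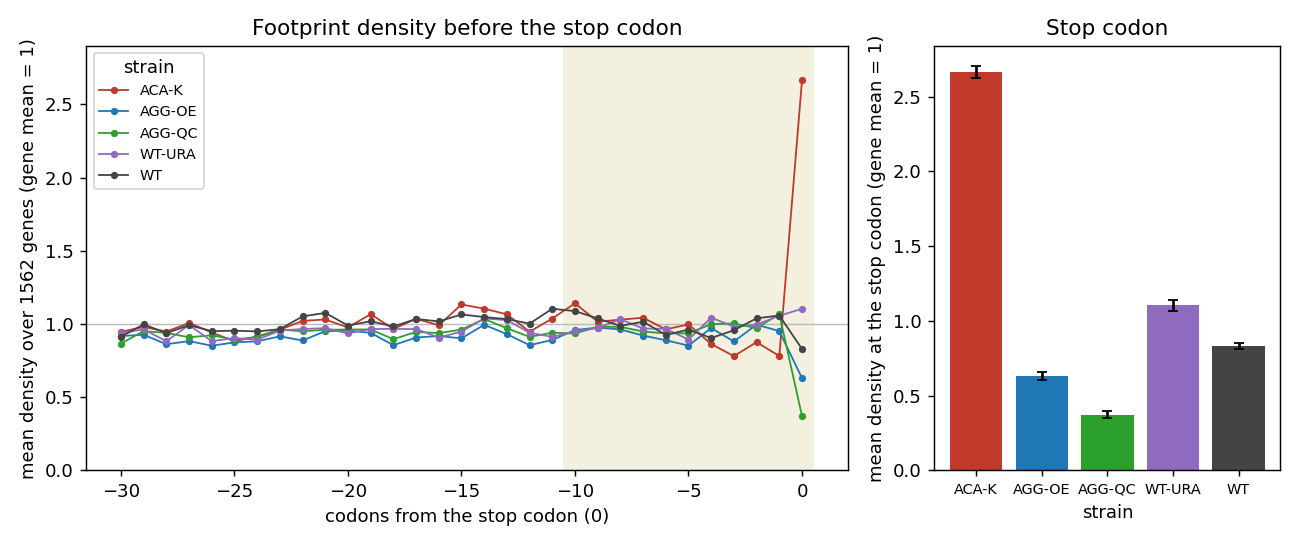
Left, mean footprint density over 1562 genes against the distance in codons from the stop codon (0), with the stop and the 10 codons before it shaded; right, the mean density at the stop codon with 95% counting intervals as bars, for the 5 strains. All strains lie near 1 up to the codon before the stop, and at the stop ACA-K reaches 2.66 while AGG-QC falls to 0.371.

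Within every strain the stop codons of different genes ranged from no footprint to many times the gene mean. The largest single density was 101.4 in ACA-K, 27.7 in AGG-OE, 16.9 in AGG-QC, 41.1 in WT-URA and 24.6 in WT. Median density was 0.96 in ACA-K (quartiles 0.145 and 2.77), 0.18 in AGG-OE (quartiles 0 and 0.783), 0 in AGG-QC (quartiles 0 and 0.480), 0.65 in WT-URA (0 and 1.49) and 0.33 in WT (0.045 and 0.956). No footprint was found at the stop in 22.1% of genes in ACA-K, 45.1% in AGG-OE, 59.2% in AGG-QC, 29.1% in WT-URA and 23.3% in WT. That share depends on depth, and WT, the deepest library, still had more empty stops than ACA-K. Positions giving the gene mean were empty at 37.7% in ACA-K, 45.1% in AGG-OE, 49.8% in AGG-QC, 46.0% in WT-URA and 19.7% in WT. Long genes weigh more in this share of positions. At the codon 60 before the stop, 29.8% of genes had no footprint in ACA-K and 15.4% in WT. The share there was 41.2% in AGG-OE, 43.7% in AGG-QC and 39.3% in WT-URA. The stop exceeded or equalled the gene mean in 48.5% of genes in ACA-K, 19.8% in AGG-OE, 11.6% in AGG-QC, 36.2% in WT-URA and 23.9% in WT. The share at the codon 60 before it was 27.8% in ACA-K, 25.9% in AGG-OE, 27.9% in AGG-QC, 29.7% in WT-URA and 31.9% in WT. The stop was thus above that share in ACA-K and WT-URA and under it in the AGG strains and WT. The median stop was thus near the gene mean in ACA-K and below it in the other strains. Densities are skewed, so ordinary codons have a median below the gene mean as well. At the codon 60 before the stop the median was 0.417 in ACA-K and 0.614 in WT. It was 0.295 in AGG-OE, 0.291 in AGG-QC and 0.365 in WT-URA. The median stop lay above these values in ACA-K and WT-URA and under them in the AGG strains and WT.

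**Figure D2:**
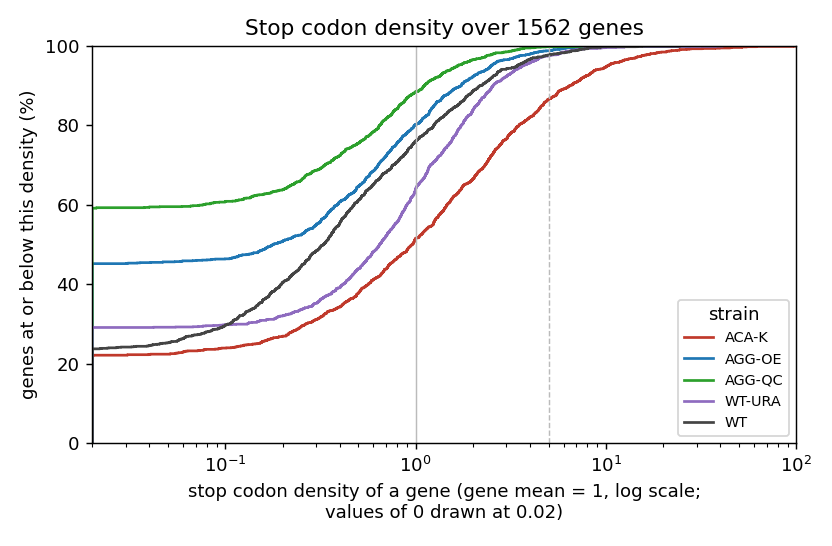
Share of the 1562 genes (vertical axis, percent) whose stop codon density is at or below the value on the horizontal log axis, 1 line per strain, with densities of 0 drawn at 0.02; the grey lines mark 1 and 5 times the gene mean. The ACA-K line runs furthest to the right, with 48.5% of genes at or above 1, and the AGG-QC line furthest to the left, with 59.2% of genes at 0.

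A stop codon at 5 times the gene mean or more was more frequent than an ordinary codon at that level in ACA-K, and less frequent in the plasmid strains. In ACA-K, 209 of 1562 stop codons (13.4%, Wilson interval 11.8 to 15.2%) were that high, against 3.46% of all 814153 positions past the first 100 codons of the same genes. In AGG-OE there were 19 (1.22%), against 3.7% of all positions. In AGG-QC there were 3 (0.192%), against 3.78%. In WT-URA there were 39 (2.50%), against 3.57%. In WT there were 36 (2.305%, interval 1.67 to 3.17%), against 1.71%. The stop was thus under the share of ordinary codons in both AGG strains and somewhat under it in WT-URA, while the WT interval includes the background. Ranking the stop among the later codons of its own gene gave another order below ACA-K and WT-URA. Its median percentile was 69.0 in ACA-K, 35.0 in AGG-OE, 30.8 in AGG-QC, 57.8 in WT-URA and 28.8 in WT, so WT was lowest by this measure, though AGG-OE and AGG-QC were below it by the mean. Tied positions shared a middle rank, so an empty stop ranks higher where more positions are empty. These were 49.8% of positions in AGG-QC but 19.7% in WT, so the order of percentiles between strains depends on depth. The stop was the highest position past the first 100 codons in 37 genes in ACA-K, in none in AGG-OE or AGG-QC, in 1 in WT-URA and in 5 in WT.

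The 10 codons before the stop showed no rise comparable to that at the stop. Their mean density was 0.949 in ACA-K, 0.935 in AGG-OE, 0.975 in AGG-QC, 0.986 in WT-URA and 0.997 in WT, and single positions lay between 0.780 and 1.14 in every strain. The share of these positions at 5 times the gene mean or more was 2.79% in ACA-K, 3.14% in AGG-OE, 3.37% in AGG-QC, 3.14% in WT-URA and 1.65% in WT, each under its background given above. At the codon 10 before the stop, where a queued ribosome would be looked for, the mean density was 1.14 in ACA-K (1.11 to 1.17), 0.958 in AGG-OE, 0.935 in AGG-QC, 0.949 in WT-URA and 1.09 in WT (1.07 to 1.11). This was the highest of the 10 positions in ACA-K and WT, but positions 11 to 30 before the stop reached 1.13 in ACA-K and 1.10 in WT as well, so it does not stand out from its surroundings.

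ACA-K had a shallow dip just before its peak. Over the last 4 sense codons its mean density was 0.825, against 1.03 over the 6 codons before those, and against 0.989 at the same last 4 codons in WT. The codon next to the stop was at 0.781 in ACA-K (0.760 to 0.802), 0.951 in AGG-OE, 1.07 in AGG-QC, 1.06 in WT-URA and 1.06 in WT (1.04 to 1.08). In 275 genes with a gene mean of at least 5 footprints per codon in all 5 strains, called well covered below, this codon was 2-fold or more lower in ACA-K than in WT in 86 genes (31.3%) and higher in 17 (6.18%). Of all positions past the first 100 codons, 25.3% were lower and 10.9% higher, and at the codon 10 before the stop 82 genes (29.8%) were lower and 33 higher. The gene counts next to the stop are thus not far from the background.

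The codon next to the stop varied with it in ACA-K and WT more than in the plasmid strains. Over the 275 well-covered genes, the Spearman correlation between the stop and the codon next to it was 0.37 in ACA-K, 0.16 in AGG-OE, 0.19 in AGG-QC, 0.14 in WT-URA and 0.45 in WT. Both values of a gene share its gene mean and library, and reads of neighbouring codons can be assigned to either, so these are descriptions. With the codon 10 before the stop it lay between -0.10 and 0.01 in all 5 strains. Splitting the genes by the stop density of another library removes the shared counting noise: in the 69 genes in the top 25% by WT stop density, ACA-K had a mean density of 7.23 at the stop, 1.23 at the codon before and 1.22 at the codon 10 before. In the 69 genes in the bottom 25% it had 0.29, 0.44 and 1.26. So the stop and the codon next to it differed between these genes, and the codon 10 before it hardly at all. The difference was not confined to those: all codons between them also had a higher mean in the top genes. It was 1.43 against 0.676 at the codon 6 before the stop, and 1.26 against 1.19 at the codon 8 before.

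The question for the tRNA strains is whether the last codon differs from their references gene by gene. Folds were computed in the 275 well-covered genes as the log2 ratio of (count + 1)/(gene mean + 1), and a fold of 2 or more was called, which is a size rule and not a test. AGG-OE and AGG-QC share the WT-URA library as reference, and WT is shared by ACA-K and WT-URA.

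In ACA-K the stop codon was higher than in WT in most genes. It was 2-fold or more higher in 170 of 275 genes (61.8%), against 10.9% of all 96741 positions past the first 100 codons of the same genes, and 2-fold or more lower in 11 (4.00%), against 25.3% of all positions. The median gene had a log2 fold of 1.40, or 2.64-fold, where the median position had -0.28. The ratio of mean densities, ACA-K over WT, was 3.21.

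In AGG-OE the stop codon was lower than in WT-URA. It was 2-fold or more lower in 109 of 275 genes (39.6%), against 11.3% of all positions, and higher in 4 (1.45%), against 8.05%. The median log2 fold was -0.77, where that of all positions was -0.06. AGG-QC showed the larger difference of these strains: its stop was 2-fold or more lower than in WT-URA in 168 genes (61.1%), against 10.2% of all positions, and higher in 4 (1.45%), against 10.6%. The median log2 fold was -1.23, where that of all positions was 0.05. The ratio of mean densities was 0.571 for AGG-OE over WT-URA and 0.336 for AGG-QC over WT-URA.

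The reference strains differed from each other as well. In WT-URA the stop codon was 2-fold or more higher than in WT in 135 of 275 genes (49.1%), against 19.1% of all positions, and lower in 25 (9.09%), against 27.7%. The median log2 fold was 0.95, and the ratio of mean densities was 1.33. Both of these strains have the full set of tRNA genes. Set beside their median log2 fold, that of ACA-K over WT was larger in size, that of AGG-OE over WT-URA smaller and that of AGG-QC over WT-URA larger. WT-URA and WT also differ by the plasmid and the library, which cannot be told apart here.

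**Figure D3:**
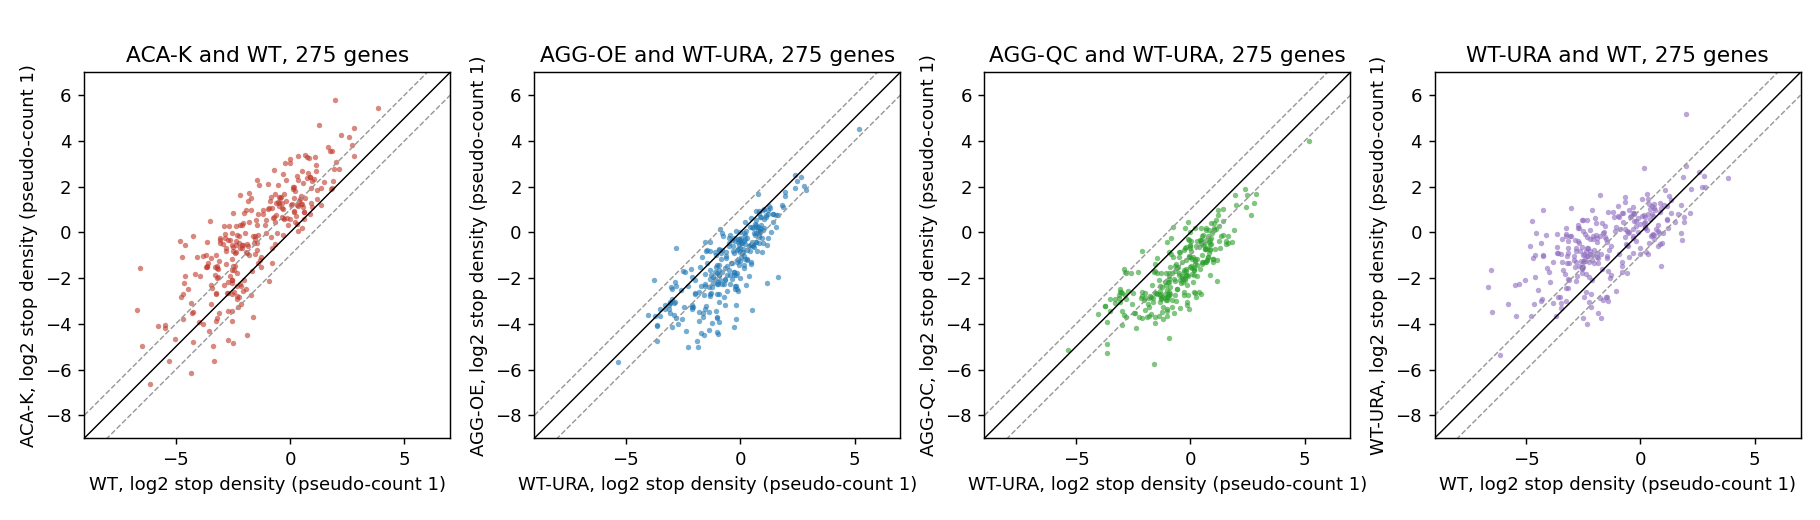
Stop codon density on the log2 scale (pseudo-count of 1) in 275 well-covered genes, 1 point per gene, with the first-named strain on the vertical and its reference on the horizontal axis; the solid line marks equality and the dashed lines 2-fold. Most points lie above the line for ACA-K over WT (170 beyond 2-fold) and below it for AGG-QC over WT-URA (168 beyond 2-fold).

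The strains kept much of the order of genes while the level shifted. Across the 275 genes the Spearman correlation of stop density was 0.84 between ACA-K and WT, 0.81 between AGG-OE and WT-URA, 0.80 between AGG-OE and AGG-QC, and 0.79 between AGG-QC and WT-URA. Between a strain with a URA plasmid and one without it was lower, from 0.64 for AGG-QC and WT to 0.74 for ACA-K and WT-URA. The 10 codons before the stop fell into the same 2 sets, with a mean correlation of 0.79 between ACA-K and WT, 0.87 to 0.88 among the plasmid strains and 0.60 to 0.69 across. Within a gene, ACA-K was highest in 157 of 275 genes and WT-URA in 82, and AGG-QC was lowest in 131.

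The genes named below follow fixed ranks, the first of them being the 10 well-covered genes with the highest median stop density over the strains. TDH3, which encodes the main glyceraldehyde-3-phosphate dehydrogenase of glycolysis, led with 55.1 in ACA-K, 23.9 in AGG-OE, 16.9 in AGG-QC, 37.6 in WT-URA and 3.98 in WT. WT alone was low for this gene. TDH3 has close paralogs, and 49.3% of its codons used for the gene mean held no footprint in any library, where the median well-covered gene had 0.357%. Because only uniquely mapped reads were kept, its gene mean is uncertain. Taken over the codons that any library reached, its stop density was 27.9 in ACA-K, 12.1 in AGG-OE, 8.54 in AGG-QC, 19.1 in WT-URA and 2.01 in WT, in the same order. TDH2, its paralog, was not well covered, with 63.7% of codons unreached, and had 39.6, 27.7, 15.8, 41.1 and 6.23 in these strains.

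Of the other 9 genes, 3 had no unreached codon, so their gene means rest on every codon. DPS1, the cytosolic aspartyl-tRNA synthetase, had a stop density of 44.9 in ACA-K (2039 footprints), 6.06 in AGG-OE, 4.03 in AGG-QC, 5.58 in WT-URA and 14.6 in WT (947 footprints). It was thus high in both strains without a plasmid. ARO8, an aromatic aminotransferase, had 18.6 in ACA-K, 5.73 in AGG-OE, 1.81 in AGG-QC, 6.91 in WT-URA and 6.09 in WT, so the AGG-QC value (12 footprints) lay under all others. OLA1, a conserved P-loop ATPase, had 19.5 in ACA-K, 2.23 in AGG-OE, 1.09 in AGG-QC, 3.88 in WT-URA and 4.69 in WT. The density of OLA1 was 4.16-fold higher in ACA-K than in WT, with 1318 footprints at the stop in ACA-K and 407 in WT.

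The remaining 6 were ENO2, the glycolytic enolase, and 5 genes of ribosomal proteins that have a near-identical copy. RPL15A had 10.1 in ACA-K, 3.47 in AGG-OE, 2.32 in AGG-QC, 4.02 in WT-URA and 7.06 in WT, with 5.26% of its codons unreached. RPL13A had 24.2 in ACA-K, 4.86 in AGG-OE, 3.29 in AGG-QC, 5.78 in WT-URA and 6.95 in WT. Its copy RPL13B had 14.5, 3.08, 3.18, 3.99 and 6.59 in these strains. ACA-K was the highest strain for all 5 ribosomal protein genes, RPL2B (8.63 in ACA-K, 4.03 in WT) and RPS1A (12.03 in ACA-K, 3.63 in WT) included. ENO2 differed: it had 3.75 in ACA-K, 4.15 in AGG-OE, 2.42 in AGG-QC, 6.99 in WT-URA and 1.10 in WT. Between 12.3% and 56.6% of codons were unreached in RPL13A, RPL13B, RPL2B, RPS1A and ENO2, so their levels share the limit given for TDH3, while ratios between strains share one set of codons.

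**Figure D4:**
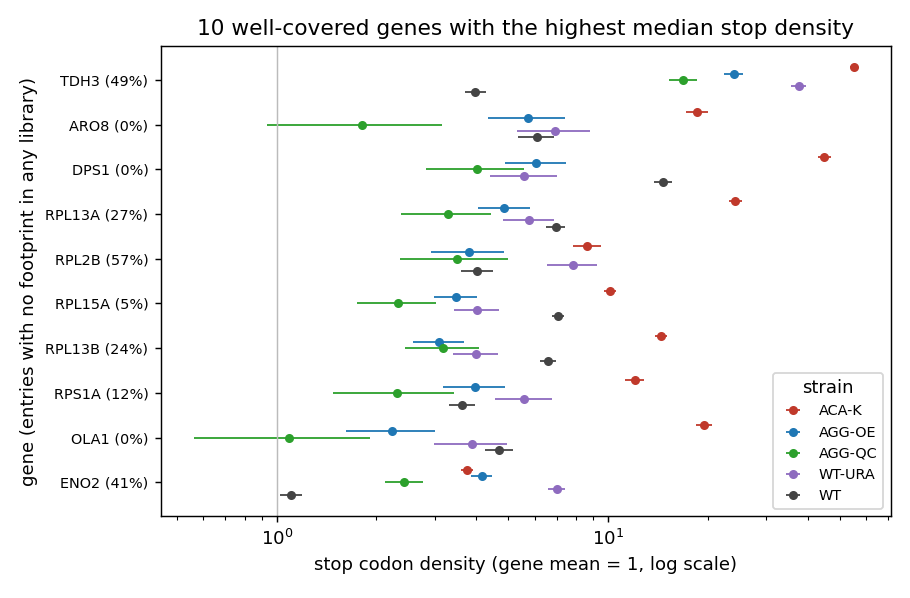
Stop codon density on a log axis for the 10 well-covered genes with the highest median over strains, with exact Poisson intervals as bars; the percentage beside each symbol is the share of its codons without a footprint in any library. ACA-K is the highest strain in all but ENO2, with DPS1 at 44.9 and OLA1 at 19.5.

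At the other end, some stop codons were nearly empty in every library. FAA1, a fatty acyl-CoA synthetase, had no footprint at its stop in any of the 5 strains, although its gene mean was between 7.60 and 9.95 footprints per codon and its last 10 codons were at 0.606 to 1.25. ECM33, a GPI-anchored cell wall protein, had a gene mean of 97.2 in ACA-K, 50.2 in AGG-OE, 33.7 in AGG-QC, 40.0 in WT-URA and 140 in WT, and only 1 footprint at the stop, in WT. Its last 10 codons were also nearly bare, at 0.006 to 0.019 of the gene mean, so the emptiness of ECM33 is not particular to the stop. ASN2, an asparagine synthetase, and YMR099C, a hexose-6-phosphate epimerase, each had 2 footprints at the stop in ACA-K and none elsewhere. YMR173W-A had none in any strain, but 52.6% of its codons were unreached, and it has no entry in the gene table used for names. In all, 119 of the 1562 genes (7.62%) had no footprint at the stop in any library, and 2, HAP1 and SAP190, had none at any of the 11 positions. Among all positions past the first 100 codons of the 1562 genes, 9.29% were empty in all 5 libraries, a share close to that of the stop codons.

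The largest rises of ACA-K over WT came from stops that were almost empty in WT. HXK2, hexokinase 2, had 92 footprints in ACA-K, a density of 0.895, against 7 in WT, a density of 0.047. Its log2 fold was 4.08. IDH2, a subunit of isocitrate dehydrogenase, had 16 footprints in ACA-K and 0 in WT, and BGL2, a cell wall glucanase, had 26 in ACA-K and 0 in WT. A count of 0 allows at most 3 counts in a library by the floor used here, and the count set against it was taken as exact. On that basis IDH2 was at least 7.01-fold higher in ACA-K and BGL2 at least 10.2-fold higher. None of these stops was above the gene mean in either strain. The largest falls were ATP5, a stalk subunit of the ATP synthase, FAS1, the beta subunit of fatty acid synthase, and ERG10, the acetoacetyl-CoA thiolase, which had 0 footprints in ACA-K and 6, 6 and 5 in WT. With the same floor, the bounds were 1.71-fold for ATP5, 1.43-fold for FAS1 and 1.38-fold for ERG10. They leave out the counting error of the 5 or 6 footprints in WT, so these falls rest on very few counts and are not established. HXK2, BGL2 and ASN1 also led the rises of WT-URA over WT: HXK2 had 67 footprints in WT-URA (density 2.01), and BGL2 had 14 (0.307). ASN1, an asparagine synthetase, had 10 (1.46) in WT-URA against 1 (0.019, exact Poisson interval 0.0005 to 0.106) in WT. The low WT value of HXK2 and BGL2 therefore enters both comparisons.

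The falls in the AGG strains held more counts. RPL5, a ribosomal protein gene without a copy, had 4 footprints at the stop in AGG-OE, 0 in AGG-QC and 29 in WT-URA, with gene means of 112, 52.6 and 89.5. By the floor, with the WT-URA count taken as exact, RPL5 was at least 5.68-fold lower in AGG-QC. IPP1, the cytosolic pyrophosphatase, had 8 footprints in AGG-OE (density 0.111), 1 in AGG-QC (0.021) and 40 in WT-URA (0.514). URA2, the first enzyme of pyrimidine synthesis, had 9 in AGG-OE (0.668), 1 in AGG-QC (0.129) and 20 in WT-URA (2.41). The largest falls of AGG-OE were YCP4, ATP1, the alpha subunit of the ATP synthase, and DSK2, a ubiquitin receptor, with 0 footprints in AGG-OE and 15, 13 and 9 in WT-URA. By the floor, with the WT-URA counts again taken as exact, YCP4 was at least 4.61-fold lower in AGG-OE, ATP1 at least 4.48-fold and DSK2 at least 3.68-fold.

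Rises in the AGG strains were few and thin. HHO1, the linker histone, had 6 footprints at the stop in AGG-OE and 2 in WT-URA. RPN6, a proteasome lid subunit, had 4 in AGG-OE and 0 in WT-URA, and HRI1 had 2 in AGG-OE and 0 in WT-URA. FPR3, a nucleolar prolyl isomerase, had 3 in AGG-QC and 1 in WT-URA, and STE2, the alpha-factor receptor, and CRH1, a cell wall transglycosylase, had 1 in AGG-QC and 0 in WT-URA. None of these 6 genes rests on more than 6 footprints. The falls of WT-URA against WT were PMI40, the mannose-6-phosphate isomerase (4 footprints in WT-URA, density 0.316, and 67 in WT, density 1.91), PYP1 (8 in WT-URA, density 0.783, and 124 in WT, density 3.59) and CPR5, a cyclophilin of the ER (0 in WT-URA and 11 in WT).

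A few genes had a strong position among the 10 codons before the stop. RPN5, another proteasome lid subunit, had a density at the codon 10 before the stop of 2.74 in ACA-K, 13.8 in AGG-OE, 22.8 in AGG-QC, 9.18 in WT-URA and 1.87 in WT. It was high in the plasmid strains alone, and its stop was at 1.55 or less in every strain. SUI2, the alpha subunit of eIF2, had 7.23 in ACA-K, 5.60 in AGG-OE, 7.12 in AGG-QC, 6.61 in WT-URA and 4.68 in WT at this codon. RPL2B had 16.4 in ACA-K, 8.77 in AGG-OE, 8.50 in AGG-QC, 9.57 in WT-URA and 7.44 in WT, RPL15A had 3.63 to 9.22, and EHT1, an ethyl ester synthase, had 0.771 in ACA-K and 3.24 to 4.75 in the other strains.

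High densities over the last 10 codons mostly came from a few codons. In SRL1, which encodes a cell wall mannoprotein, the codon 4 before the stop was at 12.4 in ACA-K, 34.1 in AGG-OE, 37.1 in AGG-QC, 40.5 in WT-URA and 12.6 in WT. The stop of SRL1 was at 27.3 in ACA-K (660 footprints) and at 0.663 to 3.18 in the other strains. In RPL8A the codon 8 before the stop was at 12.8 in ACA-K, 23.6 in AGG-OE, 24.3 in AGG-QC, 19.2 in WT-URA and 12.4 in WT. In GSP1, the Ran GTPase, the highest was the codon 7 before the stop in all 5 strains, at 8.58 in ACA-K, 14.1 in AGG-OE, 15.1 in AGG-QC, 18.2 in WT-URA and 5.10 in WT, and in DDR48, a stress protein with 62.9% of codons unreached, the last 2 sense codons. CTS1, the endochitinase, was the exception, with several codons raised at once in the plasmid strains: its mean over the 10 codons was 0.794 in ACA-K, 3.43 in AGG-OE, 4.47 in AGG-QC, 4.03 in WT-URA and 0.845 in WT.

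Groups of genes differed in stop density within a strain. The 21 genes of cytosolic ribosomal proteins that met the rule, of 138 listed, had a median of 2.47 in ACA-K, 1.08 in AGG-OE, 0.906 in AGG-QC, 2.00 in WT-URA and 1.16 in WT, above the median of all 1562 genes in each strain. Their median gene had 11.9% of codons unreached, against 3.46% in the median of all 1562 genes, and the part of this in their level was not tested over the list. RPS4A was the highest of them (13.6 in ACA-K and 1.88 in WT, with 69.1% unreached) and RPL5 the lowest (0.314 in ACA-K and 0.171 in WT). The 16 glycolytic genes had 1.63 in ACA-K, 0.810 in AGG-OE, 0.424 in AGG-QC, 1.18 in WT-URA and 0.905 in WT, with 0.457% of codons unreached in their median gene. TDH2 was their highest and HXK1 their lowest, with no footprint at the stop in ACA-K, AGG-QC or WT, 1 in AGG-OE and 5 in WT-URA.

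The GPI-anchored, ER lumen and prenylated lists, all short, had medians under that of all 1562 genes in ACA-K, AGG-OE, WT-URA and WT, while in AGG-QC their medians and that of all genes were 0. The 16 GPI-anchored genes, whose proteins lose a hydrophobic tail in the ER, had a median of 0 in ACA-K, 0.023 in AGG-OE, 0 in AGG-QC, 0.325 in WT-URA and 0.077 in WT. Their highest was PST1 (1.82 in ACA-K, 0 in AGG-OE and AGG-QC, 0.943 in WT-URA and 0.833 in WT), and EXG2 had no footprint at the stop in any strain. In ACA-K their upper quartile was under the median of all genes. The 7 ER lumen genes had 0.235 in ACA-K, 0 in AGG-OE, AGG-QC and WT, and 0.151 in WT-URA, from EUG1 with no footprint anywhere to SCJ1 with 2 in ACA-K and 3 in WT-URA. The 6 prenylated genes had 0.161 in ACA-K, 0.024 in AGG-OE, 0 in AGG-QC, 0.067 in WT-URA and 0.107 in WT, from RAS2, with 1 footprint in AGG-QC, to NAP1 (0.244 in ACA-K and 0.118 in WT). The 9 tail-anchored genes, of 28 listed, lay above the median of all genes in 4 strains and under it in WT: they had 1.47 in ACA-K, 0.251 in AGG-OE, 0.323 in AGG-QC, 0.713 in WT-URA and 0.216 in WT, from TLG1 (11 footprints in ACA-K and 0 in WT) to SEC22 (5.80 in ACA-K and 2.69 in WT).

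**Figure D5:**
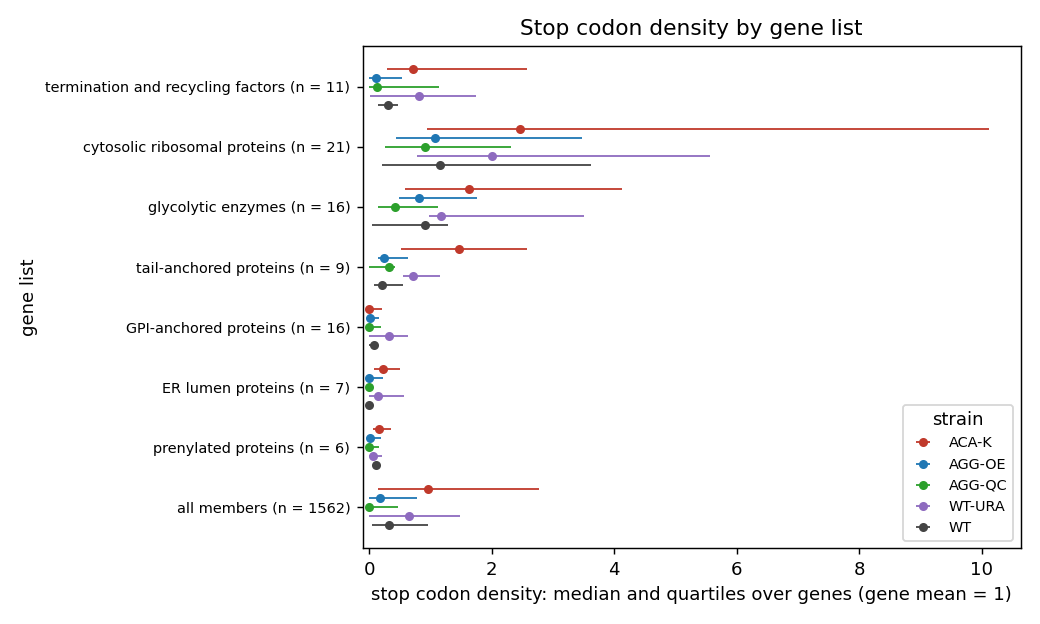
Median stop codon density (points) with the lower and upper quartile over genes (bars), by gene list and strain, with the number of genes that met the rule in brackets. The medians of the ribosomal protein and glycolytic lists lie to the right of those of all 1562 genes, and those of the GPI-anchored, ER lumen and prenylated lists lie between 0 and 0.325.

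The lists mostly followed all 275 genes in their folds between strains. In ACA-K against WT, 61.8% of all 275 stops were 2-fold or more higher and 4.00% lower. Of the 18 well-covered ribosomal protein genes, 14 were 2-fold or more higher in ACA-K than in WT and none was lower. Of the 13 glycolytic genes, 7 were higher and none lower. Of the 8 GPI-anchored genes, 2 were higher and 1 was lower, and their median log2 fold was -0.45, where that of all 275 genes was 1.40. In AGG-QC against WT-URA, where 61.1% of all 275 stops were lower, 10 of 18 ribosomal protein genes, 11 of 13 glycolytic genes and 5 of 8 GPI-anchored genes were lower, and 0, 0 and 1 were higher. In AGG-OE against WT-URA, where 39.6% of all 275 stops were lower, 8, 4 and 4 genes of these lists were lower and none was higher. None of the 7 listed genes known for stop codon readthrough met the rule.

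Of the 17 termination and recycling genes, 11 met the rule, and their median stop density was 0.717 in ACA-K, 0.106 in AGG-OE, 0.123 in AGG-QC, 0.809 in WT-URA and 0.308 in WT. NEW1, an ABCF ATPase linked to termination, had the highest, with 37.4 in ACA-K (635 footprints), 0.784 in AGG-OE, 1.61 in AGG-QC, 2.58 in WT-URA and 3.70 in WT (71 footprints). SUP35 had 1.78 in ACA-K, 1.501 in AGG-OE, 1.17 in AGG-QC, 1.68 in WT-URA and 0.432 in WT. SUP45 had 0.252 in ACA-K, 0.106 in AGG-OE, 0 in AGG-QC and WT-URA, and 0.080 in WT, on at most 7 footprints. RLI1, which was not well covered, had 3 footprints in ACA-K, 2 in AGG-OE, 2 in AGG-QC, 0 in WT-URA and 4 in WT, and HBS1, the lowest, had 3 in WT and none elsewhere.

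Footprints per 1000000 over the 4964 genes were 573.8 in ACA-K, 533.6 in AGG-OE, 450.2 in AGG-QC, 454.5 in WT-URA and 604.4 in WT for SUP45. For SUP35 they were 894.8, 776.2, 749.9, 638.3 and 1032.8 in these strains, and for RLI1 379.1, 267.5, 221.7, 229.9 and 326.0. None of the 17 genes differed by 2-fold in any of the 4 comparisons, where 0.342% of all genes were 2-fold higher and 0.645% lower in ACA-K over WT, 0.282% and 0.705% in AGG-OE over WT-URA, 1.11% and 0.222% in AGG-QC over WT-URA, and 15.3% and 4.11% in WT-URA over WT. Their median log2 fold was -0.01 in ACA-K over WT, where that of all genes was -0.03. It was 0.11 in AGG-OE over WT-URA (all genes -0.11) and -0.01 in AGG-QC over WT-URA (all genes 0.08). In WT-URA over WT it was -0.29 (all genes 0.38), with SUP35 at -0.69, RLI1 at -0.50 and SUP45 at -0.41.

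Mean stop density was highest in the genes with the most mRNA in every strain but WT. From the lowest to the highest quartile of genes by mRNA signal per codon in WT, mean stop density was 2.37, 2.43, 2.84 and 3.02 in ACA-K, 0.53, 0.57, 0.61 and 0.82 in AGG-OE, and 0.90, 0.94, 1.21 and 1.35 in WT-URA. In AGG-QC it was 0.31, 0.33, 0.33 and 0.52, and in WT 0.76, 0.85, 0.86 and 0.85. The medians did not rise to the last quartile in ACA-K (0.717, 0.931, 1.16 and 0.981) or WT-URA (0, 0.570, 0.809 and 0.803). In AGG-OE and AGG-QC the median was highest in the last quartile, at 0.347 and 0.216. From the shortest to the longest quartile of genes, ACA-K had mean stop densities of 2.63, 2.62, 2.77 and 2.64, against 0.78, 0.82, 0.86 and 0.86 for WT. AGG-OE had 0.76, 0.54, 0.65 and 0.57, and AGG-QC had 0.44, 0.34, 0.34 and 0.36, against 1.24, 1.03, 1.10 and 1.04 for WT-URA. By the mean, the shortest genes were thus highest in the plasmid strains. In WT-URA the medians from shortest to longest were 0.692, 0.675, 0.687 and 0.404, and the shortest had the lowest upper quartile, at 1.35. The part of single genes with very high densities in these means was not tested. Stop codon identity, the base after the stop and the last amino acids were not analysed here.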

How the data were processed

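Ribosome footprints and mRNA were sequenced from 5 yeast strains, 1 library of each kind per strain. The authors aligned reads to assembly R63 with Bowtie 1.0.0 (the aligner as named in the submitters' processing notes), kept uniquely mapped footprints, assigned each to an active codon and deposited counts of footprints per codon, with their sum per gene. The deposited mRNA values are a summed signal per gene and were used only to rank genes. Each table's strain was read from its own name. Per-gene means, densities, shares and folds were computed in Python 3.11.15 with numpy and scipy. Gene symbols came from RefSeq (assembly R64, names and neighbours only), which matched 1561 of 1562 genes.

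The members and gene lists were chosen with earlier results of these data known. Genes were named by rank among the 275 with a gene mean of at least 5 in all strains: the 10 highest and 5 lowest median stop densities (ties broken by the highest value), the 5 highest at the codon 10 before the stop and over the last 10 codons, the 3 largest rises and falls per comparison, the extremes of each list, SUP45, SUP35 and RLI1. The ribosomal protein list was added from symbols. Folds used a pseudo-count of 1, and share intervals are Wilson 95% intervals. A count of 0 was given a floor of 3 counts, and the count set against it was taken as exact, so its own counting error is not in these bounds. Reads are not independent molecules, so intervals and floors cover counting error only. The steps were tested on simulated data. Alternatives covered the gene mean, the coverage minimum, the pseudo-count, the fold and thinning to the smallest library; 3 settings on unreached codons and empty stops were chosen after seeing the data. The planned grouping by stop codon and C-terminal residue was not run, because no sequences were used here.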

Additional observations from a re-analysis of the deposited data

How the results depend on the processing

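The direction of the ratio of mean stop densities did not change under any of the 13 other settings for any of the 4 comparisons, and the cause of the changes in size below was not tested. ACA-K over WT (3.21) became 3.12 with the gene mean from the second codon, 2.92 with medians over genes, 3.08 with pooled counts, 3.01 without the top 1% of genes, 3.54 at a minimum of 2000 footprints and 2.81 with a pseudo-count of 1. AGG-OE over WT-URA (0.571) became 0.275 with medians, 0.686 with the pseudo-count and 0.537 without genes over 10% unreached. AGG-QC over WT-URA (0.336) became 0 with medians, where the AGG-QC median is 0, 0.367 at 2000 footprints and 0.552 with the pseudo-count. WT-URA over WT (1.33) became 1.10 with the gene mean from the second codon, 1.97 with medians, 1.62 pooled, 1.59 at 2000 footprints and 1.26 at 100.

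The share of genes with the stop at 3 times the gene mean was 23.4% in ACA-K, 3.46% in AGG-OE, 1.47% in AGG-QC, 7.68% in WT-URA and 5.83% in WT; at 10 times it was 5.25, 0.192, 0.128, 0.384 and 0.192% in these strains. With 2000 footprints or more the share at 5 times was 15.3% in ACA-K, 1.98% in AGG-OE, 0.495% in AGG-QC, 3.71% in WT-URA and 3.22% in WT. Without genes over 10% unreached it was 0.568% in AGG-OE, 0.081% in AGG-QC and 1.54% in both WT-URA and WT. A background over all positions was computed only at 5 times the gene mean, with the full set of genes. The shares at these other settings therefore have none, and whether they differ from ordinary codons was not tested.

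Counts of genes with a 2-fold higher or lower stop depend on the number of genes tested, 275 in the report. At a gene mean of 2 or more (729 genes), 437 were higher and 42 lower in ACA-K over WT, 20 and 286 in AGG-OE over WT-URA, 16 and 384 in AGG-QC over WT-URA, and 359 and 67 in WT-URA over WT. At a gene mean of 10 or more (131 genes) they were 79 and 4, 0 and 56, 0 and 88, and 65 and 9, in the same order. With 4-fold in place of 2-fold they were 78 and 4, 1 and 32, 0 and 43, and 65 and 3. With 1.5-fold, 18 were lower in ACA-K over WT, 15 higher in AGG-OE over WT-URA, 10 higher in AGG-QC over WT-URA and 47 lower in WT-URA over WT. A pseudo-count of 0.1 gave 20 lower in ACA-K over WT and 7 higher in AGG-OE over WT-URA. Thinning to the smallest library left 207 genes above the minimum and gave 86 higher in WT-URA over WT. Centring on the median of all positions moved no count by over 1.5 times. The share of all positions called was computed only for the 275 genes at 2-fold with a pseudo-count of 1. The counts at other settings therefore have no background, and whether they differ from ordinary positions was not tested.

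No paired analysis was possible because each strain has 1 library. With 1 library per strain, a strain and its library cannot be told apart. Depth limits single genes in the smaller libraries, where the median gene mean is under 3 footprints per codon and a stop below the average density often shows none.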

Other observations

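Grouping genes by the neighbour at the 3′ end gave one order of stop densities by the mean and another by the median. By the order of genes in RefSeq, 831 of the 1562 genes face a neighbour on the other strand (convergent) and 730 are followed by one on the same strand (tandem). Mean stop density was 2.87 in convergent and 2.43 in tandem genes in ACA-K, 0.69 and 0.57 for AGG-OE libraries, 0.39 and 0.35 for AGG-QC, 1.13 and 1.07 in WT-URA, and 0.84 and 0.82 in WT. It was higher in convergent genes in 5 of 5 libraries, which measure the same genes and are not separate checks. The medians did not share this order: in ACA-K the median was lower in convergent genes, at 0.90, than in tandem genes, at 1.001.

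Genes with much-occupied stop codons in ACA-K also differed in WT at the codon next to the stop. In the 69 well-covered genes in the top 25% by ACA-K stop density, WT had a mean density of 2.07 there (median 1.31), against 0.55 (median 0.29) in the bottom 25%. The codons 2, 3 and 4 before the stop also had higher means in the top genes, at 1.95, 1.66 and 1.43 against 0.902, 0.819 and 0.513. The codon next to the stop was picked after the values were seen.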
